A study of Mus musculus with 10 samples.

Results

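The genes described here are 10 heat shock protein genes of the cytosol and of mitochondria, namely Hspa1a, Hspa1b, Hspa8, Hsph1, Dnajb1, Hspb1, Hsp90aa1, Hsp90ab1, Hspd1 and Hspe1. They were chosen by symbol in the GENCODE M21 annotation of the mouse genome (GRCm38), each symbol was found once, and they are 10 of the 18381 genes in the table. All 10 passed the filter on low counts that left 14504 genes for testing. The data are RNA-seq counts of first lower molars of wild type C57BL/6JOlaHsd mouse embryos at embryonic day 14. From each of 5 embryos, numbered 1, 2, 3, 4 and 6, one molar was kept for 6 h in a hanging drop with 750 ng per ml of recombinant mouse IGF1, an insulin-like growth factor. The other molar of the same embryo was kept in medium with the same volume of the carrier, phosphate buffered saline with bovine serum albumin, and is called the control. Every tooth, control teeth included, was thus dissected and cultured, a tooth that was not cultured was not analysed here, and the whole molar was sequenced as bulk tissue.

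Heat shock proteins are chaperones that bind unfolded or unstable proteins and help them to fold. In the cytosol, J proteins bring clients to Hsp70, exchange factors reset Hsp70, and a bridging cochaperone hands some clients on to Hsp90, which completes the folding of many kinases and receptors. In mitochondria, imported proteins fold inside a chaperonin barrel closed by a lid. Many of these genes are read by heat shock factor 1, which binds repeats of the bases nGAAn in alternating orientation, called heat shock elements, while other members are read at a high level in unstressed cells.

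The sequences before the gene starts are shown where such repeats were found, as a description. A link between the repeats and the changes of the genes was not tested. RefSeq promoter windows (GRCm38.p6) were matched for 7 of the 10 genes. Hspa8, Hsp90aa1 and Hsp90ab1 were not matched. The 250 bases before each start were searched on both strands for the pairs GAANNTTC and TTCNNGAA, each of which reads the same on both strands and which can overlap each other, and for the run of 3 units TTCNNGAANNTTC. One or the other pair was found for 6 of the 7 genes, all but Dnajb1, and in 12.8% of the 32851 promoter windows of the table. A gene with 2 windows, as Hsph1, Dnajb1 and Hspd1 have, was counted where either window matched, while the share of the table is over single windows. The run of 3 units was found for 2 of the 7 genes, Hspd1 and Hspe1, and in 0.466% of the windows. The matched pair of Hsph1 lies before its RefSeq starts but inside a first exon of the GENCODE model. CACGTG and CCAAT were searched as well and were found for 2 and 4 of the 7 genes, beside 6.02% and 33.8% of the windows. All of these are matches of letters and not shown binding sites. The following stretches of 30 bases, written from 5′ to 3′ on the strand of the gene, hold the matches to the pairs and the run. The matched letters are in capitals. That of Hspa1a is the same as that of Hspa1b and is part of the longer window given after it.

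Hspe1 (chr1:55088053-55088082, plus strand): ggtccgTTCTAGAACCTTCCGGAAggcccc

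Hspd1 (the same bases, chr1:55088053-55088082, minus strand): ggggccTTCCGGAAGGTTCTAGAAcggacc

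Hspb1 (chr5:135887801-135887830, plus strand): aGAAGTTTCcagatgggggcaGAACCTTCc

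Hsph1 (chr5:149636351-149636380, minus strand): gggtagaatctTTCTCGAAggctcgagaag

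Hspa1b (chr17:34959324-34959353, minus strand): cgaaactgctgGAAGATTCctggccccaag

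Hspd1 (ENSMUSG00000025980, chromosome 1, 55077835 to 55088243, minus strand) and Hspe1 (ENSMUSG00000073676, chromosome 1, 55088132 to 55091307, plus strand) lie head to head, and their gene models overlap by 112 bases at their starts. The 18 bases in capitals are therefore a single stretch read in opposite directions. It lies 89 to 72 bases before the RefSeq start of Hspe1 and 144 to 127 bases before one of the 2 RefSeq starts of Hspd1. The 250 bases before the other start of Hspd1, at 55088243, held no match to the pairs or the run of 3 units. The first exon of an annotated Hspd1 transcript runs through the 18 bases. Hspa1b (ENSMUSG00000090877, chromosome 17, 34956436 to 34959238) and Hspa1a (ENSMUSG00000091971, chromosome 17, 34969190 to 34972156) lie on the same strand with 9951 bases between them, and each has a single exon. The 250 bases before their starts are given whole, because they differ at only 3 positions (98.8% identity without gaps).

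Hspa1a (chr17:34972157-34972406, minus strand): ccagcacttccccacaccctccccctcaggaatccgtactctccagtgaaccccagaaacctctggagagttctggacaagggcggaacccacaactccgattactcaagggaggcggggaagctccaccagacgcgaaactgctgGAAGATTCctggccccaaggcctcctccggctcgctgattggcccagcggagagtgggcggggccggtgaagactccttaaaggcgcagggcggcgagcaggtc

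Hspa1b (chr17:34959239-34959488, minus strand): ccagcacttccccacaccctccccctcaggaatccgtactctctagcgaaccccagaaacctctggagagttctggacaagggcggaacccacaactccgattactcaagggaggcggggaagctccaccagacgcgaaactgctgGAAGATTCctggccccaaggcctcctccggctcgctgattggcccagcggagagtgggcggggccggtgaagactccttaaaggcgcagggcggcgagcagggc

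The libraries held 2845773 to 8403151 counts among control teeth and 3456634 to 8763113 among IGF1 teeth, with the lowest totals in embryo 1. The 10 genes took from 0.727% to 0.846% of the counts in the control teeth and from 0.732% to 0.991% in the IGF1 teeth. Markers of dental epithelium and dental mesenchyme were present, with summed levels of 2195 to 3472 CPM over 10 epithelial genes and 5370 to 7126 CPM over 10 mesenchymal genes. Values below are CPM, counts in proportion to the scaled size of the library, and a fold change is the IGF1 tooth over the control tooth on the log2 scale from edgeR's quasi-likelihood fit of all genes with the embryo as a block. The threshold for a call was an adjusted p of 0.05. The 5 samples of a group are separate embryos.

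Which heat shock protein genes differed between the IGF1 tooth and the control tooth of the same embryo was asked first. Hsp90aa1, Hspd1 and Hspe1 rose with IGF1, and 0 members were called lower by edgeR. At an unadjusted p under 0.05, edgeR also put 0 members lower and 5 higher, where 26.5% of all genes were under it in either direction, and DESeq2 and limma-voom called 0 lower. Of all genes tested, 11.5% were called in either direction and 6.72% were called higher. The 7 other members, which include the inducible Hsp70 genes Hspa1a and Hspa1b, were not past the threshold. Their fitted changes ran from 0.02 for Hsp90ab1 to 0.20 for Dnajb1. The fitted change was above 0 for all 10 members, where it was above 0 for 49.4% of all genes. Leaving out 1 embryo turned it below 0 for Hspa1a (without embryo 1 or 2), Hsp90ab1 (without 2 or 4) and Hspb1 (without 6), down to -0.065, -0.015 and -0.035. The median change was 0.14 over the members and -0.0038 over all genes tested. In bulk tissue, a change in the share of a cell type and a change in the RNA per cell cannot be told apart.

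**Figure D1:**
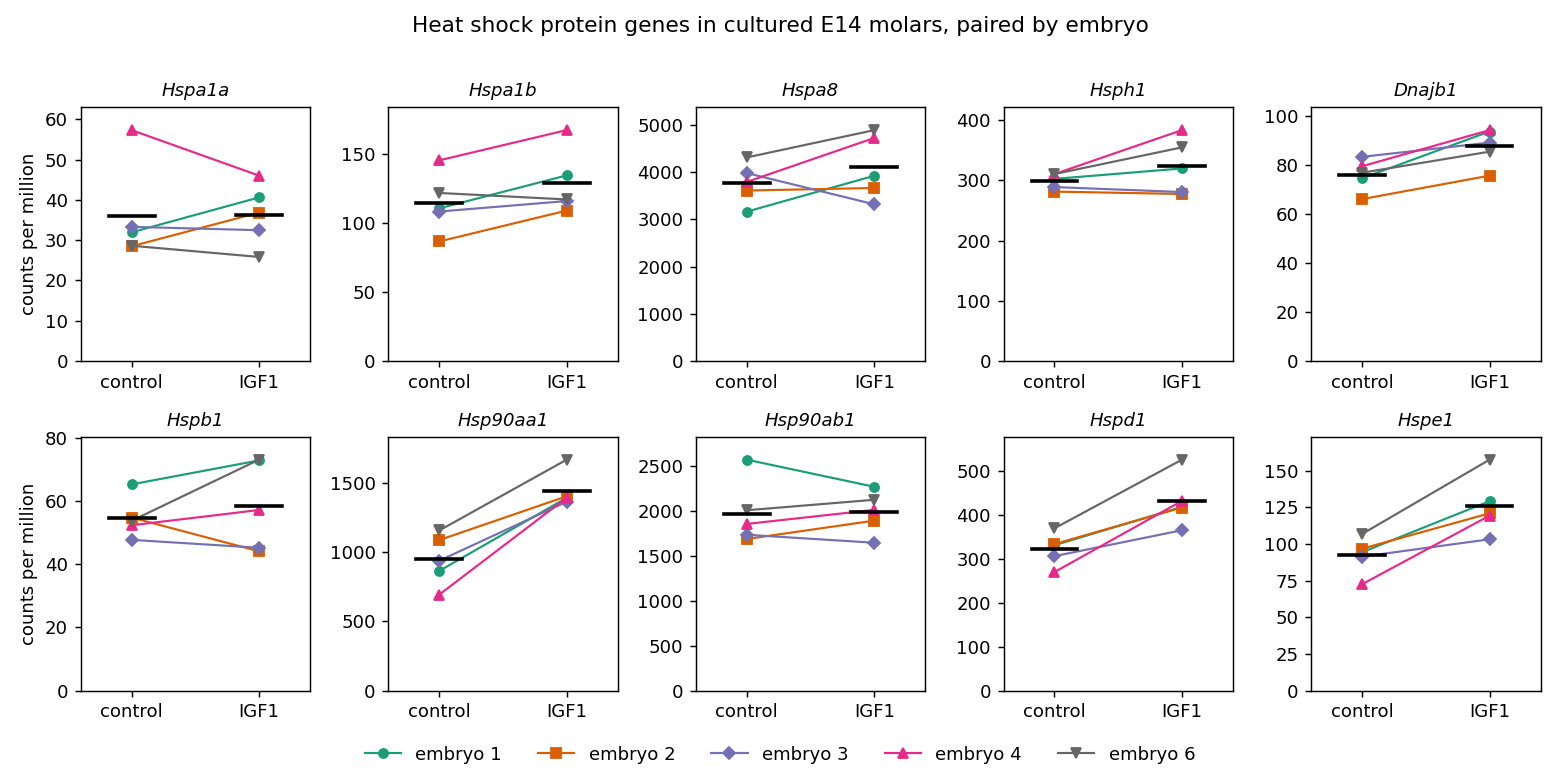
CPM (linear axis from 0, labelled in full) of the 10 genes in the control and the IGF1 tooth of each embryo, with lines joining the teeth of an embryo and black bars at the group means (n = 5). Hsp90aa1, Hspd1 and Hspe1 rise in every embryo, and the 5 IGF1 values of Hsp90aa1, from 1364 to 1667, all lie above its control values.

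Hsp90aa1 (ENSMUSG00000021270, chromosome 12, 110690605 to 110702728, minus strand) encodes Hsp90 alpha, the form of cytosolic Hsp90 known to be inducible by stress. In the control teeth of embryos 1, 2, 3, 4 and 6 it had 864, 1087, 938, 693 and 1156 CPM. In the IGF1 teeth of the same embryos it had 1392, 1403, 1364, 1393 and 1667 CPM. The groups did not overlap, which was the case in this direction for 4.21% of the genes tested. The control teeth were spread over a wider range than 4 of the 5 IGF1 teeth, which lay between 1364 and 1403 CPM, while the IGF1 tooth of embryo 6 stood above them. The mean rose from 948 ± 184 CPM to 1444 ± 126 CPM (SD, n = 5). The log2 fold change was 0.63 (SE 0.091, 95% interval 0.43 to 0.83, adjusted p = 0.00162 from edgeR), and it was above 0 in 5 of 5 embryos, from 0.37 in embryo 2 to 1.01 in embryo 4. Of all genes tested, 13.0% were higher in the IGF1 tooth of every embryo.

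Hsp90ab1 (ENSMUSG00000023944, chromosome 17, 45567775 to 45573271, minus strand) encodes Hsp90 beta, the form that cells make at a high level without stress. It had 2568, 1686, 1734, 1854 and 2006 CPM in the control teeth of embryos 1, 2, 3, 4 and 6. In the IGF1 teeth it had 2267, 1891, 1645, 2010 and 2122 CPM. The groups overlapped over most of their range, and the highest value of all belonged to the control tooth of embryo 1. The log2 fold change was 0.02 (SE 0.076, 95% interval -0.14 to 0.19, adjusted p = 0.896 from edgeR), with the IGF1 tooth higher in 3 of 5 embryos. The ratio of Hsp90aa1 to Hsp90ab1 counts was 0.336, 0.645, 0.541, 0.374 and 0.576 in the control teeth and 0.614, 0.742, 0.829, 0.693 and 0.785 in the IGF1 teeth. It was higher with IGF1 in every embryo, though the lowest IGF1 ratio, in embryo 1, lay below the highest control ratio, in embryo 2.

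The change of Hsp90aa1 exceeded that of Hsp90ab1 by 0.60 ± 0.29 on the log2 scale (SD, n = 5), in 5 of 5 embryos. An exact sign-flip permutation test over the 5 embryos gave a two-sided p of 0.0625, the smallest that 5 pairs allow (0.125 after Benjamini-Hochberg adjustment over the 4 gene pairs compared), so this test cannot reach 0.05 with 5 embryos. Against Hspa8, the change of Hsp90aa1 was larger by 0.51 ± 0.22 in 5 of 5 embryos (exact permutation p = 0.0625, adjusted 0.125). Between Hspa1b and Hspa1a the difference was 0.13 ± 0.23, above 0 in 3 of 5 embryos (exact permutation p = 0.3125, adjusted 0.417). The pairs were chosen after the changes of the single genes had been seen.

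The mitochondrial chaperonin genes rose together. Hspd1 encodes Hsp60, the barrel in which imported proteins fold. It had 331, 334, 306, 270 and 369 CPM in the control teeth of embryos 1, 2, 3, 4 and 6. In the IGF1 teeth it had 418, 417, 365, 432 and 526 CPM. The groups touched only where the IGF1 tooth of embryo 3 lay just below the control tooth of embryo 6. The mean went from 322 ± 36.9 CPM to 431 ± 58.4 CPM (SD, n = 5), a log2 fold change of 0.42 (SE 0.075, 95% interval 0.25 to 0.59, adjusted p = 0.00500 from edgeR).

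Hspe1 encodes Hsp10, the lid of the Hsp60 barrel. It had 94.5, 96.9, 91.4, 72.6 and 107 CPM in the control teeth and 129, 121, 103, 119 and 158 CPM in the IGF1 teeth, in the same order of embryos. As for Hspd1, the lowest control value was that of embryo 4, the highest IGF1 value was that of embryo 6, and the groups overlapped only between the IGF1 tooth of embryo 3 and the control tooth of embryo 6. The mean went from 92.5 ± 12.5 CPM to 126 ± 19.96 CPM (SD, n = 5). The log2 fold change was 0.44 (SE 0.085, 95% interval 0.26 to 0.63, adjusted p = 0.00747 from edgeR). Both genes were higher in the IGF1 tooth of 5 of 5 embryos, and for both the smallest change was in embryo 3 (0.25 for Hspd1 and 0.18 for Hspe1) and the largest in embryo 4 (0.68 and 0.72). Their changes differed by -0.03 ± 0.07 on the log2 scale (Hspd1 minus Hspe1, SD, n = 5, exact sign-flip permutation p = 0.4375 unadjusted and over the 4 pairs, two-sided). Values of the pair are not separate evidence where reads from the 112 bases shared by both gene models could be given to either gene.

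**Figure D2:**
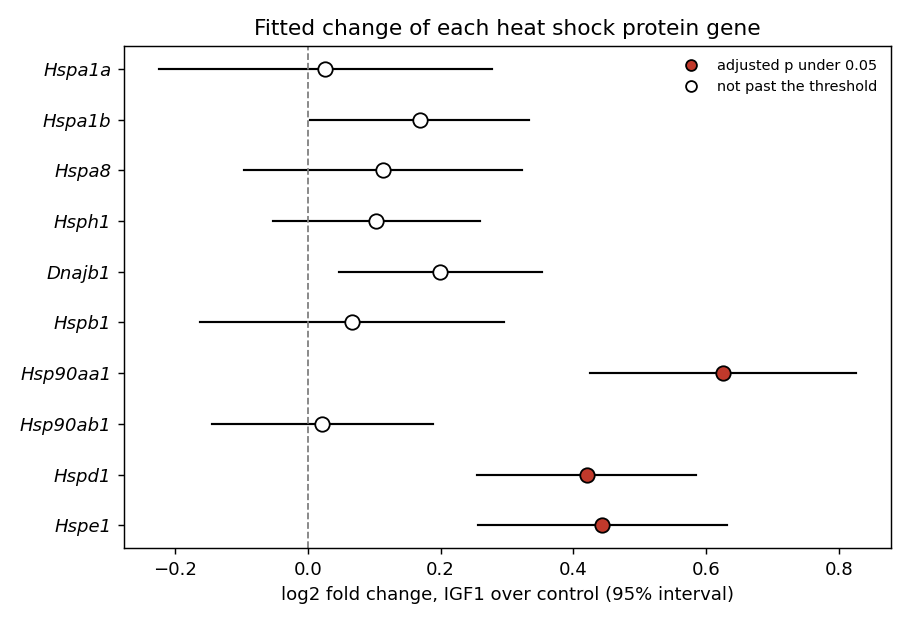
Fitted log2 fold change of each gene, IGF1 over control, with its 95% interval (n = 5 pairs). Filled points are the 3 genes past the threshold, Hsp90aa1 at 0.63, Hspe1 at 0.44 and Hspd1 at 0.42, and open points are the 7 others, from 0.02 to 0.20.

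The inducible Hsp70 proteins, encoded by Hspa1a and Hspa1b, hold unfolded proteins after heat or other stress and are the usual readout of a heat shock response. Hspa1a had 31.95, 28.5, 33.3, 57.3 and 28.6 CPM in the control teeth of embryos 1, 2, 3, 4 and 6. In the IGF1 teeth it had 40.6, 36.8, 32.5, 46.0 and 25.8 CPM. The control tooth of embryo 4 was the highest of all 10, and the IGF1 tooth was higher in 2 of 5 embryos. For Hspa1a the fitted log2 fold change was 0.03 (95% interval -0.22 to 0.28, adjusted p = 0.916 from edgeR).

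Hspa1b had 111, 86.6, 108, 145 and 122 CPM in the control teeth and 134, 109, 116, 167 and 117 CPM in the IGF1 teeth. Both teeth of embryo 4 were the highest of their groups, and the IGF1 tooth was higher in 4 of 5 embryos, all but embryo 6. Its log2 fold change was 0.17 (95% interval 0.0035 to 0.33, adjusted p = 0.180 and unadjusted p = 0.0461 from edgeR). 

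The longest coding transcripts of both genes are alike enough that 67.5% of the 31-base words of Hspa1b also occur in Hspa1a, so the split of reads between the 2 genes is an estimate of the authors' software. The ratio of Hspa1b to Hspa1a counts ran from 2.54 to 4.25 in the control teeth and from 2.96 to 4.53 in the IGF1 teeth. With the counts of both genes added into 1, the log2 fold change was 0.14 (SE 0.076, adjusted p = 0.285 from edgeR).

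Hspa8 (ENSMUSG00000015656, chromosome 9, 40800984 to 40810087, plus strand) encodes Hsc70, the constitutive Hsp70 of the cytosol. It had 3165, 3612, 3981, 3795 and 4313 CPM in the control teeth and 3925, 3666, 3320, 4725 and 4891 CPM in the IGF1 teeth. The IGF1 teeth of embryos 4 and 6 lay above every control tooth, while that of embryo 3 lay below 4 of them. Its fitted log2 fold change was 0.11 (95% interval -0.10 to 0.32, adjusted p = 0.498 from edgeR), and the change was above 0 in 4 of 5 embryos and -0.26 in embryo 3.

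Hsph1 (ENSMUSG00000029657, chromosome 5, 149614287 to 149636376, minus strand) encodes Hsp105, an Hsp110 protein that exchanges the nucleotide of Hsp70. Its control values were the most even of the 10 genes, at 302, 281, 289, 310 and 310 CPM, and its IGF1 values were 320, 277, 280, 383 and 355 CPM. The IGF1 teeth of embryos 2 and 3 were below their control teeth and those of embryos 1, 4 and 6 above. The log2 fold change was 0.10 (95% interval -0.05 to 0.26, adjusted p = 0.393 from edgeR).

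Dnajb1 (ENSMUSG00000005483, chromosome 8, 83608193 to 83612653, plus strand) encodes the Hsp40 J protein that brings clients to Hsp70. It had 74.5, 66.0, 83.3, 79.4 and 76.8 CPM in the control teeth and 93.6, 75.6, 89.1, 94.1 and 85.4 CPM in the IGF1 teeth. The IGF1 tooth was higher in 5 of 5 embryos, by 0.10 to 0.33 on the log2 scale, and only that of embryo 2 lay within the control range. The fitted log2 fold change of 0.20 (SE 0.069, 95% interval 0.05 to 0.35, unadjusted p = 0.0150) did not pass the threshold after adjustment over all genes (adjusted p = 0.0903 from edgeR).

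Hspb1 (ENSMUSG00000004951, chromosome 5, 135887919 to 135889563, plus strand) encodes Hsp27, a small heat shock protein that holds unfolded proteins without ATP and is abundant in many epithelia. It had 65.3, 54.8, 47.7, 52.3 and 53.8 CPM in the control teeth and 72.9, 44.1, 45.2, 57.2 and 73.1 CPM in the IGF1 teeth. The IGF1 teeth of embryos 2 and 3 had the lowest values of all teeth, and those of embryos 1 and 6 the highest. For Hspb1 the fitted log2 fold change was 0.07 (95% interval -0.16 to 0.30, adjusted p = 0.733 from edgeR), with single embryos from -0.31 to 0.44.

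**Figure D3:**
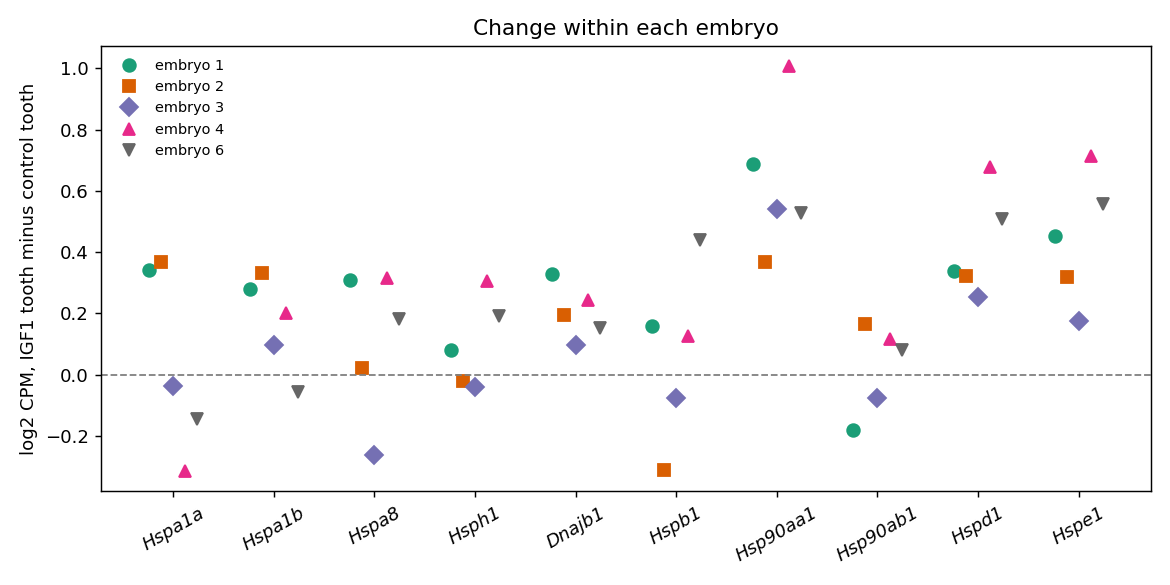
Difference in log2 CPM between the IGF1 tooth and the control tooth of each embryo, for each gene. Hsp90aa1, Hspd1, Hspe1 and Dnajb1 lie above 0 in 5 of 5 embryos, and embryo 4 has both the highest value for Hsp90aa1 (1.01) and the lowest for Hspa1a (-0.31).

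Levels between genes were set side by side per length, as CPM per kilobase of the longest coding transcript, in the control teeth. Hspa8 had the highest level, 1576 ± 179 CPM per kb (SD, n = 5), and Hsp90ab1 followed with 782 ± 142 and Hsp90aa1 with 289 ± 56.0. Hspd1 (133 ± 15.2) and Hspe1 (119 ± 16.2) were next, with control ranges that overlapped. Hsph1 had 78.5 ± 3.45, Hspb1 58.9 ± 6.95 and Hspa1b 40.9 ± 7.64, of which the last 2 overlapped. Dnajb1 had 25.4 ± 2.15 and Hspa1a, the lowest, 12.1 ± 4.09 CPM per kb. With the length of all annotated exons in place of the longest coding transcript, the order differed only in that Hspb1 came before Hsph1, but levels were the same for Hspa1a and Hspa1b and lower by different factors for the others, such as 877 CPM per kb for Hspa8, 122 for Hspd1, 62.7 for Hspe1 and 41.1 for Hsph1, so that Hspd1 and Hspe1 were no longer close. In the IGF1 teeth Hsp90aa1 had 440 ± 38.3 CPM per kb, still below the 788 ± 93.8 of Hsp90ab1.

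Copies of the genes elsewhere in the genome could share reads with them. Of the 31-base words in the longest coding transcript, 62.9% for Hsp90aa1, 55.8% for Hspd1 and 59.1% for Hspe1 also occur in a transcript of another gene, beside 79.7% for Hspa8, 70.1% for Hspa1a, 68.2% for Hspa1b, 58.4% for Hspb1, 16.6% for Hsp90ab1, 1.11% for Dnajb1 and none for Hsph1. For Hsp90aa1, 3 processed pseudogenes that share at least 10% of these words are listed in the count table, and together they hold counts equal to 1.56% of those of Hsp90aa1. For Hspd1 the value was 0.247%, from the single pseudogene Hspd1-ps3, and for Hspa8 it was 1.43% over 9 listed pseudogenes. Hspe1 shares 11.02% of its words with Hspd1 itself, which holds 25054 counts against 7247 for Hspe1, and 1 further listed copy of Hspe1 holds 17 counts.

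The other genes of the chaperone system were read from the same fit, in 8 lists of 83 genes. Of these, 78 were tested, 10 were called higher and 0 lower by edgeR, which is to be read beside the 6.72% of all genes that were called higher. At an unadjusted p under 0.05, 22 were higher and 4 lower, beside 26.5% of all genes in either direction. DESeq2 and limma-voom each called 12 higher and 0 lower, where they called 787 and 1016 of all 14504 genes higher. With at least 10 counts required in every sample, edgeR called 14 higher and 1 lower, where 1044 of 12706 genes were higher. The count was 6 without the embryo as a block, where 556 of all 14504 genes were called higher. It was 5 without embryo 1 (668 of 14537 genes) and 6 without embryo 6 (595 of 14579 genes). These counts were all of genes called higher. The median log2 fold change was 0.11 over the 78 genes.

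Stip1, known as Hop, which holds both chaperones and passes clients from Hsp70 to Hsp90, rose from 203 ± 22.4 CPM to 305 ± 36.9 CPM (SD, n = 5, log2 fold change 0.59, adjusted p = 0.000571 from edgeR). Its control teeth lay between 186 and 241 CPM and its IGF1 teeth between 263 and 356 CPM, with no overlap. Ptges3, known as p23, which binds the closed form of Hsp90, rose from 222 ± 16.1 to 307 ± 23.2 CPM (log2 fold change 0.47, adjusted p = 0.00167). Fkbp5, an Hsp90 cochaperone of steroid receptors, rose from 28.4 ± 3.63 to 39.7 ± 5.99 CPM (log2 fold change 0.48, adjusted p = 0.00889). Ptges3 and Fkbp5 were the called genes of 15 Hsp90 cochaperones, whose median was 0.10. Ahsa1, which stimulates the ATPase of Hsp90, had a log2 fold change of 0.21 (adjusted p = 0.203) and Cdc37, which brings kinases to Hsp90, of 0.02 (adjusted p = 0.868).

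Among the other 10 cochaperones of Hsp70, Bag2 rose along with Stip1. Bag2, a nucleotide exchange factor, went from 14.8 ± 2.49 to 22.5 ± 3.23 CPM (SD, n = 5, log2 fold change 0.60, adjusted p = 0.0104 from edgeR). Bag3, another member of the same family and a known target of heat shock factor 1, had a log2 fold change of -0.15 (adjusted p = 0.292). Of 13 J proteins, 2 rose, Dnajc5 (0.32, adjusted p = 0.0362), a J protein of synaptic and secretory vesicles, and Dnajc9 (0.25, adjusted p = 0.0406), a histone chaperone of the nucleus. Dnaja1, a main cytosolic J protein, had 0.08 (adjusted p = 0.621). At an unadjusted p under 0.05, edgeR put 5 J proteins higher and 1 lower. The lower one was Dnajb6 (log2 fold change -0.22, adjusted p = 0.0866), which was lower with IGF1 in every embryo. Of 6 other Hsp70 and Hsp110 genes tested, Hspa14 rose (0.33, adjusted p = 0.0233). Hspa4, an Hsp110 gene, had 0.22 (adjusted p = 0.0506).

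In mitochondria, Hspa9, the Hsp70 of the matrix that hands clients to the Hsp60 barrel, rose from 225 ± 4.16 to 309 ± 50.7 CPM (SD, n = 5, log2 fold change 0.45, adjusted p = 0.00654 from edgeR). It was the called gene of 14 mitochondrial chaperones and proteases, whose median was 0.08. Its control teeth lay between 218 and 229 CPM and its IGF1 teeth between 259 and 385 CPM, the highest in embryo 2. Lonp1, a protease of the matrix, had 0.47 with an adjusted p of 0.05001, just short of the threshold. Trap1, the Hsp90 of mitochondria, had -0.16 (adjusted p = 0.319), and Grpel1, the exchange factor of Hspa9, had 0.19 (adjusted p = 0.166).

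The cytosolic chaperonin folds actin and tubulin. Of 14 subunits of CCT and prefoldin, Cct7 (0.27, adjusted p = 0.0366 from edgeR) and Cct6a (0.23, adjusted p = 0.0377) were called higher. The median of the 14 was 0.06. At an unadjusted p under 0.05, edgeR put 3 higher and 1 lower, Pfdn5 (-0.30, adjusted p = 0.0612). Of 3 other small heat shock protein genes tested, 0 were called by edgeR (at an unadjusted p under 0.05, 0 higher and 1 lower), and Hspb8 had a log2 fold change of -0.32 (adjusted p = 0.0668). Of 3 genes tested from the list of heat shock factors, which also holds the binding protein gene Hsbp1, 0 were called by edgeR, also at an unadjusted p under 0.05. Hsf1 had a log2 fold change of -0.01 (adjusted p = 0.973) and Hsf2 of 0.09 (adjusted p = 0.616), and Hsbp1 had -0.14 (adjusted p = 0.354). The calls of Hspa14, Dnajc5, Dnajc9, Cct6a and Cct7 were each lost under some of the 11 alternatives, those of Bag2, Stip1, Ptges3, Fkbp5 and Hspa9 under none. Hsf4, Hspa1l, Hspb2 and Hspb7 had at most 32 counts over all 10 samples and were not tested, and Hspb3 is not listed in the table.

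**Figure D4:**
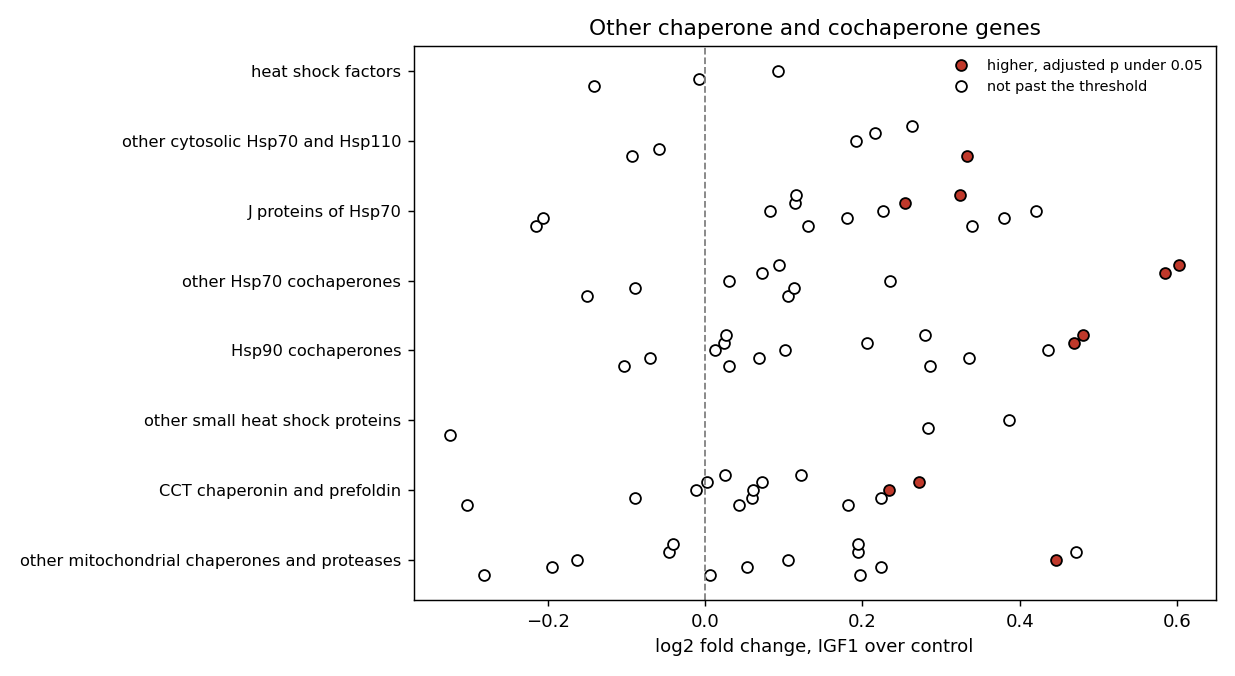
Fitted log2 fold change, IGF1 over control, of the 78 other chaperone genes tested, by list, with vertical offsets only to part the points. The 10 filled points are called higher, with Bag2 (0.60) and Stip1 (0.59) farthest to the right, and none of the points below 0 is called.

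The genes whose levels over the 10 samples were most like those of a member were named as a description, with no test, since the samples share embryos and groups. Among 10857 genes with a mean of at least 10 CPM, and with the 10 members left out, those most like Hspd1 in log2 CPM were E2f3 (Pearson r = 0.967), Chaf1b (0.963), Ywhae (0.959), Pbk (0.950) and Xrcc6 (0.947). Chaf1b rose with IGF1 (log2 fold change 0.68, adjusted p = 0.00767 from edgeR), as did E2f3 (0.31, adjusted p = 0.0433) and Pbk (0.44, adjusted p = 0.0141), while Ywhae (0.20, adjusted p = 0.0657) and Xrcc6 (0.28, adjusted p = 0.0778) were not past the threshold. Those most like the sum of Hspa1a and Hspa1b were Rbm42 (r = 0.916), Tecpr2 (0.893), Mrps34 (0.892), Plekho2 (0.887) and Stx1a (0.886), with log2 fold changes from -0.02 to 0.19 of which none was past the threshold (adjusted p from 0.266 to 0.973).

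Markers of other cells moved with the treatment beside these genes. Their calls are to be read beside the 691 lower and 975 higher calls among all 14504 genes tested. The summed level of 7 erythroid markers was 849 to 1422 CPM in the control teeth and 604 to 1109 CPM in the IGF1 teeth, lower in 5 of 5 embryos, and 5 of the 6 tested were called lower. The 6 endothelial markers summed to 345 to 391 and 272 to 356 CPM, also lower in 5 of 5 embryos, with 2 called lower. The 10 mesenchymal markers summed to 6462 to 7126 CPM in the control teeth and 5370 to 6736 CPM in the IGF1 teeth, lower in 5 of 5 embryos, with 2 called lower (Pdgfra and Vim) and 0 higher. The 10 epithelial markers summed to 2195 to 3360 and 2496 to 3472 CPM, lower in 1 of 5 embryos, with 1 called higher (Krt5) and 0 lower. Macrophage markers summed to 44.8 to 63.1 and 37.1 to 59.6 CPM, lower in 5 of 5 embryos, and of 4 tested Csf1r was called lower (log2 fold change -0.44, adjusted p = 0.0234 from edgeR). Nerve and glia markers summed to 17.0 to 25.4 and 18.7 to 34.0 CPM, lower in 1 of 5 embryos, and of 2 tested Tubb3 was called higher (0.70, adjusted p = 0.0283). Muscle markers summed to 8.78 to 23.5 and 7.12 to 49.0 CPM, lower in 2 of 5 embryos, with adjusted p-values from 0.408 to 0.984 from edgeR for the 3 tested. The defining genes at 0 in at least 1 tooth included Sox10, Foxd3 and Myog. The part of these cells in the rise of Hsp90aa1, Hspd1 and Hspe1 was not tested.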

How the data were processed

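First lower molars were sequenced as 10 libraries, 1 per tooth, from total RNA prepared with the Ovation Mouse RNAseq System. The authors deposited estimated counts per gene from salmon, not normalized and already whole numbers (0 exceptions), for 18381 genes with at least 10 counts over all samples. Their processing notes name FastQC 0.11.8, Trimmomatic 0.39, Salmon 0.99.0 and DESeq2 with GRCm38. The transcript set, the filtering and the use of strand are not given in the sources used here, so counts of copies and of overlapping genes are estimates. Symbols and positions came from GENCODE M21, in which 18287 identifiers were found and 94 were not. Promoter sequences came from RefSeq (GRCm38.p6).

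Counts were filtered with filterByExpr, scaled by TMM and fitted with edgeR 4.0.16 (glmQLFit, glmQLFTest), with embryo as a block because both teeth of a pair come from the same animal. Deviations from the group means correlated at 0.319, 0.208, -0.0389, 0.170 and 0.313 within embryos 1, 2, 3, 4 and 6, with a median of -0.0463 between embryos. Benjamini-Hochberg adjustment ran over all 14504 genes. Standard errors are the fold change over the square root of the F statistic, and changes in single embryos used a prior count of 2. The procedure was also run on simulated counts. These had changes of 1 on the log2 scale and no differences between embryos, so the run does not speak for smaller changes or for the block. No samples of 1 group agreed within counting error (chi-square per degree of freedom 4.52 to 18.2). The changes of the genes in each of 4 gene pairs were compared over the embryos with exact sign-flip permutation tests.

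The members and lists were chosen with earlier results of these data known. Genes are named if they are members, or if they are among up to 3 genes called in each direction in each list, or by likeness in log2 of CPM plus 1 (5 genes each). Others, such as Ahsa1, Cdc37, Bag3, Dnaja1, Dnajb6, Hspa4, Pfdn5, Lonp1, Trap1, Grpel1, Hspb8, Hsf1, Hsf2, Hsbp1 and single cell type markers, were named after their values had been seen. Alternatives were DESeq2 1.42.0 (size factors, and the Wald test), limma 3.58.1 (voom), other filters, no block, and leaving out each embryo. R 4.3.3 and Python 3.11.15 were used. The value of 1 marker gene is not reported here.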

Additional observations from a re-analysis of the deposited data

Results flagged for a closer look

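Within groups of 5 teeth, 40 groups of values were tested for a tooth far from the others, by the gap to its nearest neighbour over the whole range, and 3 had one, where chance gives about 1 in 20. The control tooth of embryo 4 had 57.3 CPM of Hspa1a against 28.5 to 33.3 CPM in the other control teeth (ratio 0.833). The IGF1 tooth of embryo 6 had 1667 CPM of Hsp90aa1 against 1364 to 1403 CPM in the other IGF1 teeth (ratio 0.871), and without embryo 6 the log2 fold change of Hsp90aa1 was 0.65 (adjusted p = 0.00727 from edgeR). The control tooth of embryo 1 had 218 CPM of Hspa9 against 226 to 229 CPM in the others (ratio 0.759), a gap that is small beside the IGF1 values of 259 to 385 CPM.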

How the results depend on the processing

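In each of the 11 alternatives Hsp90aa1, Hspd1 and Hspe1 were the members called, 3 in all, with log2 fold changes from 0.53 to 0.69, from 0.36 to 0.46 and from 0.38 to 0.51, and adjusted p-values up to 0.0104, 0.0316 and 0.0472. Of 110 member values 5 reversed, all for genes that were not past the threshold. Leaving out an embryo gave Hspa1a from -0.065 (without embryo 2, and -0.036 without embryo 1) to 0.13 (without embryo 4). It gave Hsp90ab1 from -0.015 (without embryo 2, and -0.0020 without embryo 4) to 0.072 and Hspb1 from -0.035 (without embryo 6) to 0.16. Hspa8 ran from 0.063 (without embryo 4) to 0.20 (without embryo 3), and Hsph1 from 0.052 (without embryo 4) to 0.14 (without embryo 3). The sum of Hspa1a and Hspa1b ran from 0.085 (without embryo 2) to 0.19 (without embryo 6). These genes and the sum stayed short of the threshold in every alternative. Without the replicate block, 887 genes and 6 of the other chaperone genes were called, in place of 1666 and 10, and the block changed no call of a member. Leaving out each embryo gave 986 (without embryo 4) to 1602 genes, 994 without embryo 6, and 5 (without embryo 1) to 11 other chaperone genes, 6 without embryo 6. Bag2, Stip1, Ptges3, Fkbp5 and Hspa9 were called in all 11 alternatives, Cct6a in 7, Hspa14, Dnajc5 and Cct7 in 6 and Dnajc9 in 3. Embryo 1 had the fewest counts, and 1124 genes were called without it. The cause of these changes was not tested.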
